A study of Mus musculus with 2 samples.

Results

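The receptors through which type 2 and itch cytokines act on sensory neurons were read from RNA-seq of dorsal root ganglion (DRG) neuron preparations. The set held 10 genes, chosen by symbol: 8 receptor chains (Il4ra, Il13ra1, Il13ra2, Il2rg, Il31ra, Osmr, Il1rl1 and Crlf2), the kinase Jak1 and the transcription factor Stat6. These 10 genes, of 24411 in the files, were represented by 15 of 35034 RefSeq transcript rows. Each of the 2 libraries came from DRG neurons pooled over 10 mice, and each group had 1 library, so the spread between mice is not known, the immunization could not be tested, and no difference has a replicate check. Both groups were male C57BL/6J mice, 6 to 8 weeks old, injected intraperitoneally on days 0 and 14 with 50% alum, an aluminium salt that serves as adjuvant. The immunized group also received 100 µg of KLH (keyhole limpet hemocyanin), a foreign protein from a mollusc. Thoracic and lumbar DRGs were taken 14 days after the second injection. The label of the control library calls it both naïve and alum alone, and it was treated as alum-injected, as in the methods of the study. The ganglia were digested, enriched for neurons on a BSA cushion and depleted of B lymphocytes with beads, which leaves other cells of the ganglion in the preparation.

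Interleukin (IL)-4 and IL-13 bind receptor complexes that share the alpha chain IL-4Rα. With the common gamma chain, encoded by Il2rg, it forms the type I receptor for IL-4, and with IL-13Rα1 the type II receptor for IL-4 and IL-13. Both signal through Janus kinases, JAK1 among them, to STAT6, while IL-13Rα2 binds IL-13 and is known mainly as a decoy. IL-31, a cytokine of allergic itch, acts on a pair of IL-31RA and the oncostatin M receptor OSMR, IL-33 on ST2 (the product of Il1rl1) with IL1RAP, and thymic stromal lymphopoietin (TSLP) on CRLF2 with the IL-7 receptor alpha chain. In sensory ganglia, Il31ra and Osmr are known from a small class of itch neurons that also make the peptides natriuretic polypeptide B and somatostatin.

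All 15 member rows matched a transcript of the GENCODE M21 annotation of GRCm38, the assembly that mm10 denotes. Il1rl1 was the single member whose rows matched different GENCODE transcripts. On chromosome 1 (40429570 to 40465415, plus strand), the membrane form of ST2 continues from exon 8 into exon 9, whereas the secreted forms read on past that splice site and stop. The first 985 coding bases are shared, and the sequences at the split are shown because they separate the receptor from the soluble protein, which binds IL-33 without signalling. Lower case marks the shared bases at chr1:40446640-40446675, and capitals the 26 coding bases that follow, from chr1:40450075-40450100 in the membrane form and chr1:40446676-40446701 in the secreted forms.
membrane form, NM_001025602: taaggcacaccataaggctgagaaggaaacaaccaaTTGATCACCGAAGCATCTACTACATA
secreted form, NM_010743: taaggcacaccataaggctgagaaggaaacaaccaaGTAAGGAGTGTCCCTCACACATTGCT
secreted form with the upstream first exon, NM_001294171: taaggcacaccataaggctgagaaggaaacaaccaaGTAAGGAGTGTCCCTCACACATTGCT

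The sequence before the start site also set the genes apart. In the RefSeq windows of GRCm38.p6, which cover 250 bases before each start, 5 members were rich in CpG dinucleotides, with 24 for Crlf2, 21 for Il13ra1, 19 for Jak1, 18 for Osmr and 17 for Il4ra. The other 5 had 0 to 6, and the median over 32851 windows was 6. The lower bound of 17 was taken from the members themselves, and 23.5% of all windows had as many CpG or more. The IL-13 receptor chains fell on both sides, and their windows are shown with those of Crlf2, the richest in CpG, and Il31ra, the receptor chain above the detection threshold with the fewest, with each CG in capitals.
Il13ra1, chrX:36111858-36112107, plus strand: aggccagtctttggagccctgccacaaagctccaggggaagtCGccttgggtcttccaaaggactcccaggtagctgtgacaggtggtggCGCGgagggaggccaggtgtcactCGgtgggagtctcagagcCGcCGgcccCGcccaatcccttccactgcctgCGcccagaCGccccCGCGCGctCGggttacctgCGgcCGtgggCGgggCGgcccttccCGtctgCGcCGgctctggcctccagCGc
Il13ra2, chrX:147429193-147429442, minus strand: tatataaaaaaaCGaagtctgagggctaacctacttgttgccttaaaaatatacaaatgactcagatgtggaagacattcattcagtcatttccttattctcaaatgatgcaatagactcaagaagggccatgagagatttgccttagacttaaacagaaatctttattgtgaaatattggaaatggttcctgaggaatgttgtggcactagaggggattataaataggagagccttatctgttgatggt
Crlf2, chr5:109558994-109559243, minus strand: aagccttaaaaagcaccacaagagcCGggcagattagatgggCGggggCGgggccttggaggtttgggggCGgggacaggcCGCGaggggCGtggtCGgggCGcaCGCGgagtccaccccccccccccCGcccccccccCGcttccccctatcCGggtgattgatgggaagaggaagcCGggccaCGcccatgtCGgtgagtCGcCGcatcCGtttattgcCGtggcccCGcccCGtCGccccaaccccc
Il31ra, chr13:112580663-112580912, minus strand: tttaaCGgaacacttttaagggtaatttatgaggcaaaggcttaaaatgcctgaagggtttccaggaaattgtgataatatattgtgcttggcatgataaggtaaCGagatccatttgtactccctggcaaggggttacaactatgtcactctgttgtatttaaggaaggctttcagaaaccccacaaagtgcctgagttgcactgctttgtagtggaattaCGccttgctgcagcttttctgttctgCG

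STAT proteins are known to bind the palindrome TTCNNNGAA, and STAT6 is known to prefer the same form with 1 more base in its spacer. Both were searched over the windows of 250 bases before to 50 after the start, where each reads the same on both strands. Among the 11 windows of the members (Il1rl1 has 2), TTCNNNGAA occurred in 1, that of Il31ra, against 8.30% of all windows. Its first base lay 191 bases before the start site, in the stretch cctgaagggtTTCCAGGAAattgtgataa, with the match in capitals. The form with the longer spacer occurred in 0 of the 11 windows and in 6.95% of all. Not all windows were free of annotated exons. Of the 250 bases before the RefSeq start, 250 for Osmr, 151 for Il4ra, 59 for Jak1 and 2 for the downstream Il1rl1 start lay in GENCODE exons. For Osmr, Il4ra and Jak1, 3 of the 5 CpG-rich genes, the window is therefore not wholly upstream sequence. The Il31ra window held no exon bases but lies inside the annotated gene, which on the minus strand begins farther upstream, at chr13:112594360. The window of the downstream Il1rl1 start also lies inside its gene, which on the plus strand begins at chr1:40429570.

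The deposited values are TPM (transcripts per 1000000), reads per transcript length scaled to the same total in both libraries, so levels of different genes within a library can be set side by side. Values were summed per gene. With a threshold of more than 3 TPM for detection, as used in the study, 7 of the 10 genes were above it in each pool, compared with 46.9% of all genes with alum and 46.3% with alum + KLH. The order of the 10 genes was the same in both pools. It ran from Jak1 through Osmr, Stat6, Il13ra1, Il31ra, Il4ra and Crlf2 to Il2rg, Il1rl1 and Il13ra2, the last 3 of which stayed below 3 TPM. The values of the 2 pools overlapped between neighbours in this order for Il4ra and Crlf2, and for no other pair.

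**Figure D1:**
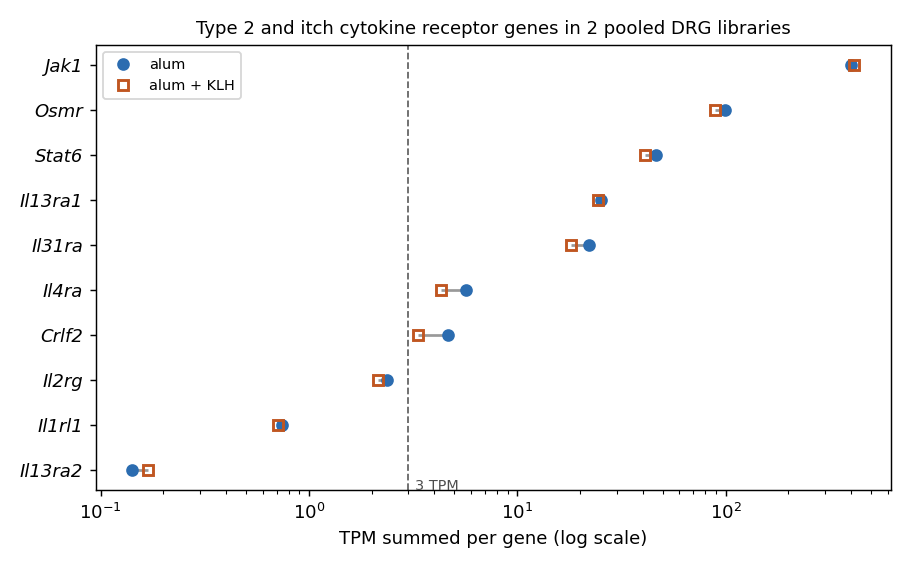
TPM summed per gene (x axis, log scale) for the 10 genes (y axis) in the alum-injected pool (filled circles) and the alum + KLH-immunized pool (open squares), with 1 library per group and the dashed line at 3 TPM. The values reach from 0.141 TPM for Il13ra2 to 415.4 TPM for Jak1, and 7 genes lie to the right of the line in both pools.

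Of the IL-4 and IL-13 receptor chains, Il13ra1 was the most abundant. Il13ra1 (NM_133990, chromosome X, 36112110 to 36171259, 11 exons) was at 25.3 TPM with alum and 24.4 TPM with alum + KLH. Il4ra (NM_001008700, chromosome 7, 125552120 to 125579474, 11 exons) was at 5.68 and 4.31 TPM in the same order. Il13ra1 thus exceeded Il4ra 4.45-fold and 5.66-fold. Il2rg (NM_013563, chromosome X, 101264378 to 101268255, 8 exons) was below the threshold at 2.38 and 2.15 TPM, or 0.419 and 0.498 of the level of Il4ra. Between the 2 partners of Il4ra, Il13ra1 was 10.6-fold and 11.4-fold above Il2rg. The decoy gene Il13ra2 (NM_008356, chromosome X, 147383476 to 147429192, 14 exons) was the lowest member at 0.141 and 0.170 TPM, and Il13ra1 was 179.0-fold and 143.8-fold above it. In pooled cells these ratios do not show which chains occur in the same cell. For Il2rg, 42.7% of the 31-base words of the transcript also occur in Gm20489, an overlapping locus on the same strand that was not analysed here, so its value is less certain than that of Il4ra, for which the share was 0.268%, or Il13ra1, for which it was 0.

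Both chains of the IL-31 receptor were well above the threshold. Osmr (NM_011019, chromosome 15, 6813577 to 6874969, 18 exons) reached 99.9 TPM with alum and 88.9 TPM with alum + KLH, a level that 8.84% and 9.68% of all genes exceeded. Il31ra (NM_139299, chromosome 13, 112522795 to 112580662, 17 exons) was at 22.0 and 18.1 TPM, which is 0.221 and 0.204 of the Osmr level. Osmr also pairs with gp130, encoded by Il6st, to receive oncostatin M, and was at 0.303 and 0.297 of the level of Il6st. Neither Il31ra nor Osmr shared a 31-base word with another annotated gene.

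The receptors of the epithelial alarmins were low. Crlf2 (NM_016715, chromosome 5, 109554713 to 109558993, 8 exons), the specific chain of the TSLP receptor, was at 4.68 and 3.33 TPM, close to the threshold in the alum + KLH-immunized pool. Its partner Il7r was at 0.139 and 0.341 TPM, below Crlf2 in both pools. Il1rl1 summed to 0.745 and 0.714 TPM, against 14.87 and 14.02 TPM for its partner Il1rap. The membrane form of Il1rl1 held most of this signal, with 0.559 and 0.513 TPM, or 75.0% and 71.9% of the gene. Of its 31-base words 2.09% also occur in other genes, against 0 for both secreted forms, which adds uncertainty to this split. The secreted form with the upstream first exon held 0.186 and 0.200 TPM, and the secreted form NM_010743 was listed at 0 in both pools. The number of reads behind such low values is not known from TPM.

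For Il13ra2, Il2rg and Crlf2, each with 2 rows, all of the signal stood on 1 row and the other was listed at 0 in both pools. Both rows of each gene matched the same GENCODE transcript, and their sequences were not compared, so nothing is read from the rows at 0. Il4ra, Il13ra1, Il31ra, Osmr, Jak1 and Stat6 had 1 row each.

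The signalling members were more abundant than the receptor chains with the exception of Osmr, which was above Stat6. Jak1 (NM_146145, chromosome 4, 101152367 to 101265282, 25 exons), the kinase associated with IL-4Rα, IL-31RA and OSMR, was at 399.3 and 415.4 TPM and was exceeded by 1.95% and 1.82% of all genes. Stat6 (NM_009284, chromosome 10, 127642986 to 127660957, 22 exons) was at 46.4 and 41.2 TPM. Stat6 overlaps Nab2, on the other strand, over 40 bases, and 0.267% of the 31-base words of Stat6 occur in another gene. Read against these windows, including those of Osmr, Il4ra and Jak1 that reach into exons, all 5 CpG-rich genes were above 3 TPM in both pools, while of the 5 with fewer CpG only Stat6 and Il31ra were. This is a description of 10 genes, split at the gap in their own CpG counts. The shares of all genes above 3 TPM on either side of that gap were not computed. No relation between CpG and level is therefore read from it.

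**Figure D2:**
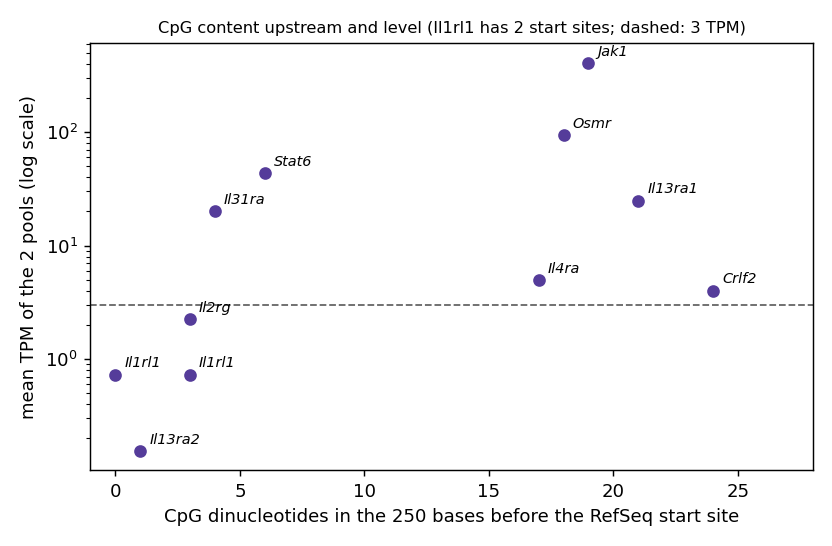
Number of CpG dinucleotides in the 250 bases before the RefSeq start site (x axis) and mean TPM of the 2 pools (y axis, log scale) for the 10 genes, with Il1rl1 drawn at both of its start sites and the dashed line at 3 TPM. The genes with 17 to 24 CpG all lie above the line, and those with 0 to 6 lie on both sides of it. The same shares over all genes were not computed.

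Set against the alum-injected pool, 8 of the 10 genes had lower values in the alum + KLH-immunized pool, and none was 1.5-fold apart. The difference is given as log2 of the ratio of TPM + 1, alum + KLH over alum, and adding 1 TPM makes changes of low genes look smaller than they are. The spread of this ratio over the 500 genes nearest in level served as a measure of how far similar genes differ between the same 2 libraries. At least 1.5-fold apart were 0 of the 7 genes above 3 TPM, compared with 2.56% of the 11648 genes detected in 1 pool or both, 1.55% being lower and 1.00% higher. Of the same genes, 1.64% were 2-fold apart, 0.944% lower and 0.695% higher. By direction, 6 of the 7 were lower against 56.4% of those detected genes, and with TPM relative to Hprt 7 of the 7 were lower against 79.0%. Of all 10 members, 0 were 1.5-fold apart and 8 were lower, against 2.14% and 56.1% of the 19596 genes listed above 0. The median ratio was -0.17 for the 7 genes and -0.13 for all 10, beside -0.02 for all detected genes. The members were chosen with earlier results of these data known, so these shares are a description only. In such pooled samples, fewer cells of a type cannot be told apart from less RNA per cell.

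The lowest ratio was that of Crlf2, at -0.39. The SD among the 500 genes of similar level was larger, at 0.44, but only 6.6% of them were as far apart, the smallest share of any member. For Il4ra the ratio of -0.33 exceeded the SD of 0.24, and for Il31ra the ratio of -0.27 exceeded the SD of 0.18. Osmr at -0.17 (SD 0.14) and Stat6 at -0.17 (SD 0.13) also lay outside 1 SD, and no member lay outside 2 SD. The share of genes of similar level that were as far apart was 8% for Il31ra, 11.6% for Stat6, 12% for Il4ra and 13% for Osmr. Il13ra1 was at -0.05 (SD 0.19) and Il2rg at -0.10 (SD 0.55). Il1rl1 was at -0.03 and Il13ra2 at 0.04, both below 1 TPM, where the added 1 TPM weighs most. Without it, Il13ra2 in the alum + KLH-immunized pool was 1.20 times its level with alum, and Il1rl1 0.958 times. Jak1 was the single detected member with a higher value after immunization, at 0.06 (SD 0.12), and its direction turned to -0.03 when TPM was expressed relative to Hprt.

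**Figure D3:**
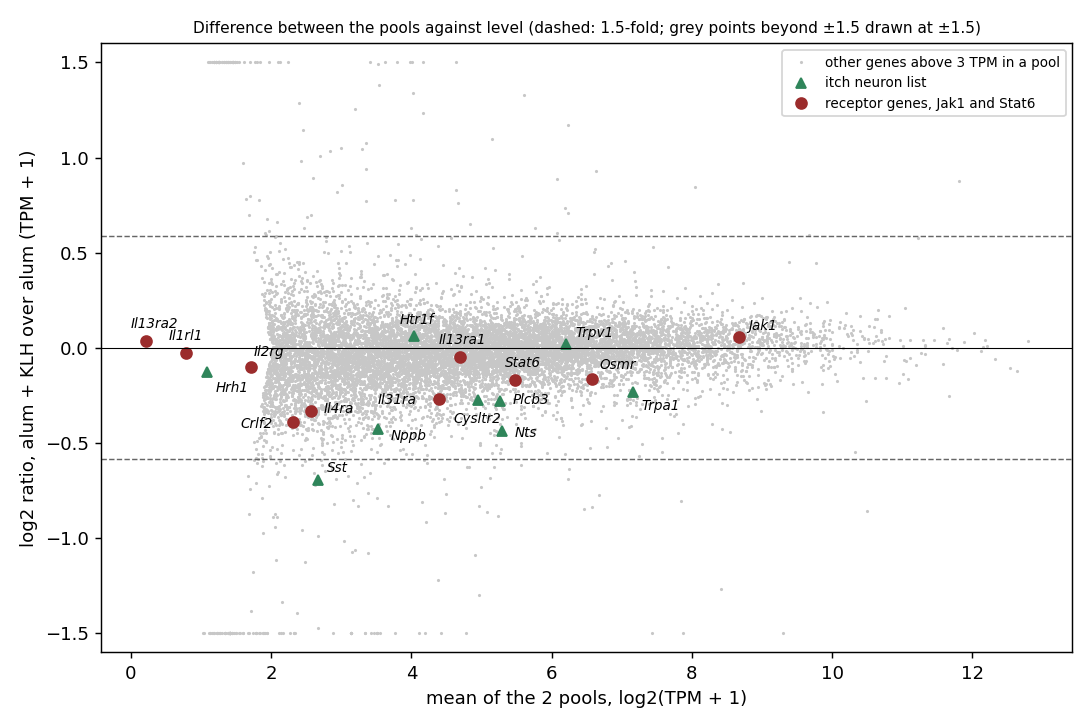
Log2 ratio of alum + KLH over alum, on TPM + 1 (y axis), against the mean level of the 2 pools (x axis, log2(TPM + 1)), with 1 library per group. Circles are the 10 genes, triangles the itch neuron list without Il31ra and Osmr, grey points all other genes detected in 1 pool or both, and dashed lines 1.5-fold. All 10 circles lie between the dashed lines, 8 of them below 0, and Jak1 moves below 0 with TPM relative to Hprt. Sst is the only triangle beyond a dashed line.

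Genes of the itch neurons that carry Il31ra were examined as a list of 11, of which 9 are not members. The list was chosen with earlier results of these data known, so its shares beside all genes are a description only. Among these 9, 8 were above 3 TPM in both pools, and 6 of the 8 had lower values in the alum + KLH-immunized pool, against 56.4% of all detected genes. With TPM relative to Hprt, 9 of the 9 were lower, so all 8 above 3 TPM were, against 79.0% of all detected genes. The median ratio of the 8 was -0.28, beside -0.02 for all genes above 3 TPM. Sst, which encodes somatostatin, was at 7.06 TPM with alum and 3.99 TPM with alum + KLH. Its ratio of -0.69 was the only one in the list past 1.5-fold, a fold that 1.55% of detected genes reached in that direction.
Nppb, which encodes natriuretic polypeptide B, was at 12.4 and 8.95 TPM, and Nts, which encodes neurotensin, at 44.5 and 32.6 TPM. The leukotriene receptor gene Cysltr2 was at 33.1 and 27.2 TPM, the phospholipase gene Plcb3 at 41.1 and 33.7 TPM, and the irritant channel gene Trpa1 at 153.9 and 130.9 TPM. These 5 genes were lower in the alum + KLH-immunized pool, each by less than 1.5-fold. The serotonin receptor gene Htr1f, at 15.1 and 15.7 TPM, and the capsaicin receptor gene Trpv1, at 72.6 and 73.6 TPM, were slightly higher, and both turned lower with TPM relative to Hprt. The histamine receptor gene Hrh1 was below the threshold at 1.21 and 1.02 TPM. The share of genes of similar level that were as far apart was 1.2% for Sst and 1.4% for Nts. It was 4.6% for Nppb and for Cysltr2, 5.4% for Plcb3 and 6.2% for Trpa1. For Hrh1, Htr1f and Trpv1 it was 54.8%, 66.4% and 85.2%. Trpa1, Trpv1 and Plcb3 are also expressed by other classes of sensory neurons.

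Few of the ligands were detected in the ganglion preparations. Of 9 ligand genes, only Il33, whose product binds ST2, was above 3 TPM, at 9.74 and 10.1 TPM. Il5 was at 1.34 and 1.12 TPM, Tslp at 0.484 and 0.681 TPM and Il4 at 0.270 and 0.338 TPM. Il13 was listed at 0 in the alum-injected pool and at 0.0488 TPM in the alum + KLH-immunized pool, and Il31 at 0.0898 TPM and 0. Osm was at 0.0342 and 0.0294 TPM, Il25 at 0 and 0.0564 TPM, and Il9 at 0 in both pools.

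Of 8 partner receptor chains, 4 were above 3 TPM in both pools. Il6st was at 329.3 and 299.4 TPM, and Lifr, whose product also pairs with gp130, at 296.2 and 291.9 TPM. Il1rap has been given above, and Il5ra, the specific chain of the IL-5 receptor, was at 13.4 and 15.9 TPM. The common beta chain gene Csf2rb, with which IL-5Rα signals, was at 1.27 and 0.965 TPM. Il17rb, a chain of the IL-25 receptor, was at 0.660 and 0.432 TPM and Il9r at 0.0411 and 0.0528 TPM.

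**Figure D4:**
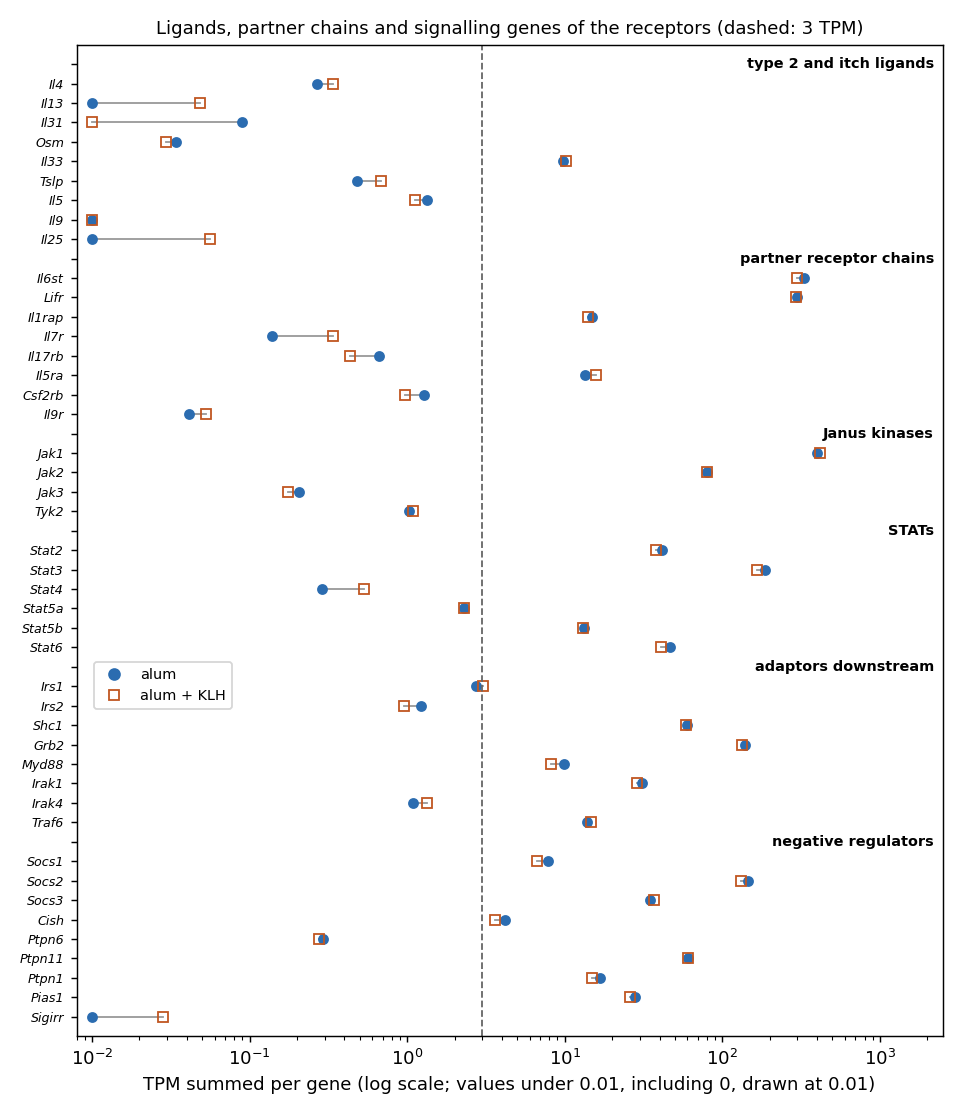
TPM summed per gene (x axis, log scale, with values under 0.01 drawn at 0.01) for ligands, partner receptor chains, Janus kinases, STATs, adaptors and negative regulators (y axis) in the alum-injected pool (filled circles) and the alum + KLH-immunized pool (open squares), with 1 library per group. Among the ligands only Il33 lies right of the dashed line at 3 TPM, and Jak3 and Tyk2 lie left of it.

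The Janus kinases differed widely in level. Jak1 was 5.005-fold and 5.223-fold above Jak2, which was at 79.8 and 79.5 TPM. Tyk2, at 1.02 and 1.09 TPM, and Jak3, the partner of the common gamma chain, at 0.205 and 0.176 TPM, were below the threshold in both pools. Of the 6 STAT genes read, 4 were above 3 TPM. Stat3, which carries signals of gp130 receptors, was the highest at 188.0 and 166.1 TPM and was 4.05-fold and 4.04-fold above Stat6. Stat2 was at 41.5 and 37.8 TPM and Stat5b at 13.34 and 13.01 TPM. Stat5a was at 2.28 and 2.31 TPM and Stat4 at 0.288 and 0.537 TPM. The median ratio of the 4 STAT genes above 3 TPM was -0.15, beside -0.02 for all detected genes. Of the 6 detected Janus kinase and STAT genes, Jak1 and Stat6 included, 0 were 1.5-fold apart, beside 2.56% of all detected genes. With so few genes, nothing is read from this count.

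The adaptors downstream of the receptors differed in level. The insulin receptor substrates that IL-4Rα recruits were near or below the threshold, with Irs1 at 2.75 and 3.04 TPM and Irs2 at 1.22 and 0.950 TPM. The general adaptors Grb2, at 139.7 and 133.4 TPM, and Shc1, at 59.6 and 59.2 TPM, were abundant. In the branch that serves ST2, Myd88 was at 9.96 and 8.20 TPM, Irak1 at 30.9 and 28.7 TPM, Traf6 at 13.9 and 14.6 TPM and Irak4 at 1.09 and 1.34 TPM. Of 9 negative regulators, 7 were above 3 TPM. They were led by Socs2 at 146.0 and 132.0 TPM, followed by the phosphatase gene Ptpn11 at 61.0 and 60.9 TPM, and Socs3 at 34.99 and 36.95 TPM. Socs1, the inhibitor of JAK1 best known downstream of IL-4, was at 7.88 and 6.65 TPM, and Cish at 4.16 and 3.59 TPM. Pias1 was at 27.8 and 26.1 TPM and Ptpn1 at 16.7 and 14.8 TPM. Ptpn6, a phosphatase of blood cells, was at 0.291 and 0.275 TPM, and Sigirr, a brake on ST2 signalling, at 0 and 0.0281 TPM. Over all pathway lists, 30 of 62 genes that are not members were above 3 TPM in both pools, beside 46.9% and 46.3% of all genes in the single pools. Of the 31 detected in 1 pool or both, 1 was 1.5-fold apart, Sst, beside 2.56% of all detected genes.

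Because several of these receptors are also known from blood cells, glia, vessels and fibroblasts, markers of other cell types were read beside them. Each of the 8 pan-neuronal genes passed 3 TPM. No gene passed the threshold among 8 macrophage, 6 B lymphocyte and 4 eosinophil genes, with sums of 7.52 and 6.89 TPM, 0.754 and 0.234 TPM, and 1.90 and 2.10 TPM. In the mast cell and basophil list only Kit did, which sensory neurons also express, at 58.1 and 56.2 TPM. The defining genes of that list were low, with Cpa3 at 2.07 and 1.86 TPM, Fcer1a at 0.136 TPM and 0, and Tpsb2 at 0 in both pools. Of the 8 T lymphocyte and innate lymphoid genes read, Thy1 and Rora, both also neuronal, and, in 1 pool, Cd3d were above 3 TPM, while Cd3g was at 0.
Markers of non-blood cells of the ganglion passed the threshold in part, beside 46.9% and 46.3% of all genes in the single pools. Of 6 endothelial genes 2 were above 3 TPM, and the list summed to 15.4 and 11.7 TPM. Cldn5 was at 0.142 TPM and 0, and Pecam1 at 2.95 and 1.53 TPM. Of 5 fibroblast genes 3 were above 3 TPM, with sums of 85.4 and 85.7 TPM. Dcn held 63.8 and 62.6 TPM of this, while Col1a1 was at 0.438 and 0.250 TPM. For Schwann cells it was 4 of 6, with sums of 1487 and 1419 TPM, of which Pmp22 held 1062 and 1021 TPM. Sox10 and Mag were below 3 TPM in both pools. For satellite glia it was 4 of 4, with 1414 and 1300 TPM. Compared with alum, all 6 endothelial, all 6 Schwann cell and all 4 satellite glia genes were lower in the alum + KLH-immunized pool, as were 8 of 9 mast cell and basophil genes and 6 of 8 pan-neuronal genes, beside 56.1% of all genes listed above 0. The median ratios were -0.21, -0.10, -0.07, -0.18 and -0.07 in that order. In the other lists, 4 fibroblast genes were lower and 1 higher, 5 macrophage genes lower and 3 higher, 4 T lymphocyte and innate lymphoid genes lower and 3 higher, 1 eosinophil gene lower and 2 higher, and 3 B lymphocyte genes lower and 0 higher. The part of these cells in the differences of Il4ra, Crlf2, Il31ra and Osmr was not tested.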

How the data were processed

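RNA was sequenced from 2 libraries of DRG neuron preparations, 1 from 10 alum-injected and 1 from 10 alum + KLH-immunized mice. Stranded mRNA libraries were sequenced as paired ends. According to the methods and the submitters' processing notes, reads were demultiplexed with bcl2fastq, trimmed with cutadapt and quantified with kallisto on the annotated mouse transcriptome of mm10, and whether strand was used is not given in the sources used here. The authors deposited TPM per RefSeq transcript. TPM keeps no read number, so the files do not give the depth and no counting interval was computed, and kallisto's division of reads among similar transcripts is contained in the values.

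TPM was summed per gene symbol. Detection meant more than 3 TPM. Differences were taken as log2 ratios of alum + KLH over alum after adding 1 TPM, and set beside the SD over the 500 genes nearest in mean level. With 1 library per group there was no test, and calls mean a fold of 1.5 or 2. Other settings tried were detection at 0.1, 1 or 10 TPM, an added 0.1 or 0.5 TPM, no filter, a single transcript per gene (the highest), 200 nearest genes, division by Hprt or by the median ratio (0.987), and omission of microRNA and small nucleolar RNA rows. The genes named are the 10 members and every gene of 8 pathway lists, with genes of 10 cell type lists. The members and lists were chosen with earlier results of these data known. One listed T lymphocyte gene is not analysed here. One further listed gene is not reported here and was left out of the counts.

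Positions and 31-base words came from GENCODE M21 (GRCm38), and start site windows from RefSeq (GRCm38.p6), where all 10 members matched. The calculations ran in Python 3.11.15 (numpy 2.4.6, pandas 2.3.3) and plots in matplotlib 3.10.9.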

Additional observations from a re-analysis of the deposited data

How the results depend on the processing

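None of the 10 genes reached 1.5-fold under any alternative, and their log2 ratios moved by less than the SD of genes of similar level. Jak1 changed sign, to -0.03 with TPM relative to Hprt, and no other member did. The extremes over the alternatives were -0.48 to -0.38 for Crlf2, -0.40 to -0.32 for Il4ra, -0.35 to -0.25 for Il31ra and 0.02 to 0.16 for Il13ra2. The number of members above the threshold was 8 at 1 TPM, 5 at 10 TPM and 10 at 0.1 TPM in each pool. Of the pathway genes that are not members, 1 was past 1.5-fold, which became 2 at a threshold of 1 TPM, where Chil3 joined Sst, and 0 at 10 TPM. Over all genes, 181 were at least 1.5-fold lower and 117 higher, and 110 and 81 at least 2-fold. Restricting to genes above 10 TPM gave 82 and 43, and 49 and 25. With the highest transcript of each gene, 274 were at least 1.5-fold lower and 169 higher. The stricter filter tests fewer genes, and the cause of the change with the highest transcript was not tested. No paired analysis was possible because each group had 1 library, and no library could be left out. The deposited TPM alone do not give the reads behind a gene, and the methods of the study state only a minimum read depth. The counting precision of the low values of Il13ra2, Il1rl1 and Il2rg was not computed.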

Other observations

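Genes that STAT6 is known to induce in macrophages, B lymphocytes and stromal cells were read as a list of 11. Only Ccl11, which encodes the eosinophil chemokine eotaxin, was above 3 TPM, at 15.3 TPM with alum and 15.7 TPM with alum + KLH. Fcer2a was at 2.85 and 2.78 TPM, Pparg at 2.70 and 2.29 TPM, Mrc1 at 1.29 and 1.35 TPM, Chil3 at 1.34 and 0.297 TPM and Arg1 at 1.04 and 0.544 TPM. Ccl24 was at 0.578 and 0.271 TPM, Ccl22 at 0.145 and 0.124 TPM, Ccl26 at 0 and 0.364 TPM, and Retnla at 0 and 0.114 TPM. Ccl17 was at 0 in both pools. None of these values has a replicate check.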
